A study of Mus musculus with 15 samples.

Results

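Dlx5, Dlx6 and the antisense transcript Dlx6os1 are neighbouring genes of mouse chromosome 6, and their signals were followed over the 15 arrays of a study of the first branchial arch. They were chosen by gene symbol, as the probe sets of the deposited table that carry 1 of these 3 names. Each gene had 1 such probe set (1449863_a_at for Dlx5, 1452507_at for Dlx6 and 1438799_at for Dlx6os1), and they make 3 of the 18194 genes that a probe set names alone. All 3 probe sets passed the filter on dim values described below. The tissue, taken from E10.5 mouse embryos, was the first branchial arch, the paired swelling that gives rise to the jaws, and its mandibular (lower) and maxillary (upper) branches were measured separately. The 5 groups held 3 arrays each. They were the wild-type (WT) mandibular branch (WT_MNA), the mandibular branch of Dlx5/6 mutants (5_6_MNA), the KO maxillary branch (KO_MXA) and 2 groups of WT maxillary branch, WT_MXA and WT_MXA2, called set 1 and set 2 here. The labels gave neither strain nor allele, they did not name the gene lost in the KO group, and they did not say what set WT_MXA2 apart from WT_MXA. Their shared description was written as a plan that named dlx2, dlx1/2 and Dlx5/6 mutants and foresaw pooled arches. The labels were silent on whether the arrays of a group hold different embryos or pools, so the p values measure the spread between these arrays, which may be technical.

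Dlx5 and Dlx6 encode homeodomain transcription factors and lie side by side, transcribed towards each other, with enhancers in the stretch between them. In the arches the pair is known for its expression in the ventral part, downstream of endothelin signalling, and for giving the lower jaw its identity, while Dlx1 and Dlx2 are expressed along the whole branch. Dlx6os1, also called Evf2, is a long noncoding RNA read from the strand opposite to Dlx6, and it is best known from the embryonic forebrain, where it binds DLX proteins and takes part in the control of Dlx5 and Dlx6. In the RefSeq annotation the Dlx6os1 interval held the whole of Dlx6 and did not reach Dlx5.

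The starts of Dlx6os1 are shown, and no window of Dlx5 or Dlx6 was available to set beside them. RefSeq promoter windows (GRCm38.p6, 250 bases before to 50 after a start) were given for 1 of the 3 genes, Dlx6os1, which has 2 such windows on the minus strand. The first lies at chr6:6869484-6869783, between Dlx6 and Dlx5, and the other at chr6:6861634-6861933, on the side of Dlx6 away from Dlx5. Capitals mark TAATTA, a core motif that homeodomain proteins bind, which reads alike on both strands.
Dlx6os1 start between Dlx6 and Dlx5: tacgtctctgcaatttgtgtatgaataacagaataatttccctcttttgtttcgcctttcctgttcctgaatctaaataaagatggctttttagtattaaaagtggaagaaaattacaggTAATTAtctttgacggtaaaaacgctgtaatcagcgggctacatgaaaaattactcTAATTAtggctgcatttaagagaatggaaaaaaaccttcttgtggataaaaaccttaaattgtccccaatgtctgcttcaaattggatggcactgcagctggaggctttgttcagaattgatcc
Dlx6os1 start on the far side of Dlx6: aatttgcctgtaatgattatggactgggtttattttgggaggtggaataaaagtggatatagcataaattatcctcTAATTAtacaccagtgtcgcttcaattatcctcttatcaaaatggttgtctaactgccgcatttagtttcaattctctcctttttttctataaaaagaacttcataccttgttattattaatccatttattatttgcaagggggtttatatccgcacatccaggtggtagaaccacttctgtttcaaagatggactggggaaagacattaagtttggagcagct
The window between the genes held 2 copies, with first bases at positions -130 and -74 relative to the start, and the other held 1 copy, at -174. Over 32851 promoter windows of the same length 5.29% held TAATTA at least once, and 0.490% held it 2 or more times. The E-box CANNTG, searched on both strands, occurred once in each window and in 72.3% of all windows. Both windows were poor in G and C, at 35.7% and 35.3%, and 4.30% and 3.98% of all windows had a lower share. A match is a run of letters and not a measured binding site.

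The values were linear intensities of an Affymetrix mouse array, called signals here, which the authors had scaled before deposition. Median signals ran from 26.6 to 33.4 over the 15 arrays, and an array correlated with the others of its group at 0.984 to 0.989. A bacterial spike-in control (dap) split the arrays. It read 496 to 583 on 9 arrays (WT and mutant mandibular, WT maxillary set 1) and 3985 to 4469 on the other 6 (KO and WT maxillary set 2). The KO group was therefore set against set 2 and the mandibular groups against set 1. The 40th percentile of an array, the limit of the filter, lay at a signal of 16.2 to 21.7. Tests were contrasts of 1 limma fit on log2(signal + 32) after quantile normalization, ± after a log2 difference is its SE, and calls were made at a Benjamini-Hochberg adjusted p under 0.05 over the 31643 kept probe sets. Adding 32 shrinks the log2 differences of dim genes.

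Dlx5 was brightest in the WT mandibular branch, where its signals were 770, 721 and 689.9. In the Dlx5/6 mutant mandibular branch they were 10.99, 13.9 and 7.96, so a gene named as mutated was low on each array that carries this label. The maxillary arrays lay between these levels, at 138, 115 and 128.4 in set 1, 97.5, 109 and 145 in set 2, and 27.3, 39.3 and 33.9 in the KO group. No array of the WT mandibular group came near those of any other group, both WT maxillary sets overlapped, and the KO arrays stood apart below them.

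Dlx6 was high in the WT mandibular group too. Its signals were 196, 256 and 298 in the WT mandibular group, against 2.62, 5.07 and 2.28 in the mutant. In the maxillary branch they were 38.9, 32.4 and 19.8 in set 1, 31.5, 23.4 and 32.7 in set 2, and 4.70, 13.0 and 29.2 in the KO group. The KO arrays spanned from the mutant's level up to that of the WT maxillary arrays. Among the WT mandibular arrays the coefficient of variation was 20.5% for Dlx6, against 5.58% for Dlx5 and 5.96% for Dlx6os1, while in set 2 it was 17.4%, 21.1% and 52.2%.

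Dlx6os1 followed another order. Its WT mandibular signals were 394, 444 and 428, and in the Dlx5/6 mutant they were 67.4, 57.6 and 74.1. The maxillary arrays were dimmer than the mutant, at 8.11, 11.8 and 20.0 in set 1, 6.73, 16.9 and 22.6 in set 2, and 1.36, 3.56 and 7.72 in the KO group. The mutant arrays therefore lay between the WT mandibular and the maxillary arrays without touching either. As a rank within the array, Dlx6os1 held percentiles 62.3 to 65.7 in the mutant and 22.5 to 44.4 in the WT maxillary sets, so its mutant arrays ranked above the maxillary ones. Dlx5 went the other way, with percentiles 24.2 to 33.0 in the mutant and 69.8 to 75.1 in the WT maxillary sets, as did Dlx6, with 10.97 to 18.8 and 41.4 to 55.6. Detection calls were not used here, and whether signals this low stand above background was not tested. Another antisense transcript that lies inside Dlx6, Dlx6os2, read 1.84 to 12.7 over the 15 arrays, reached at most percentile 33.9 and was not kept.

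**Figure D1:**
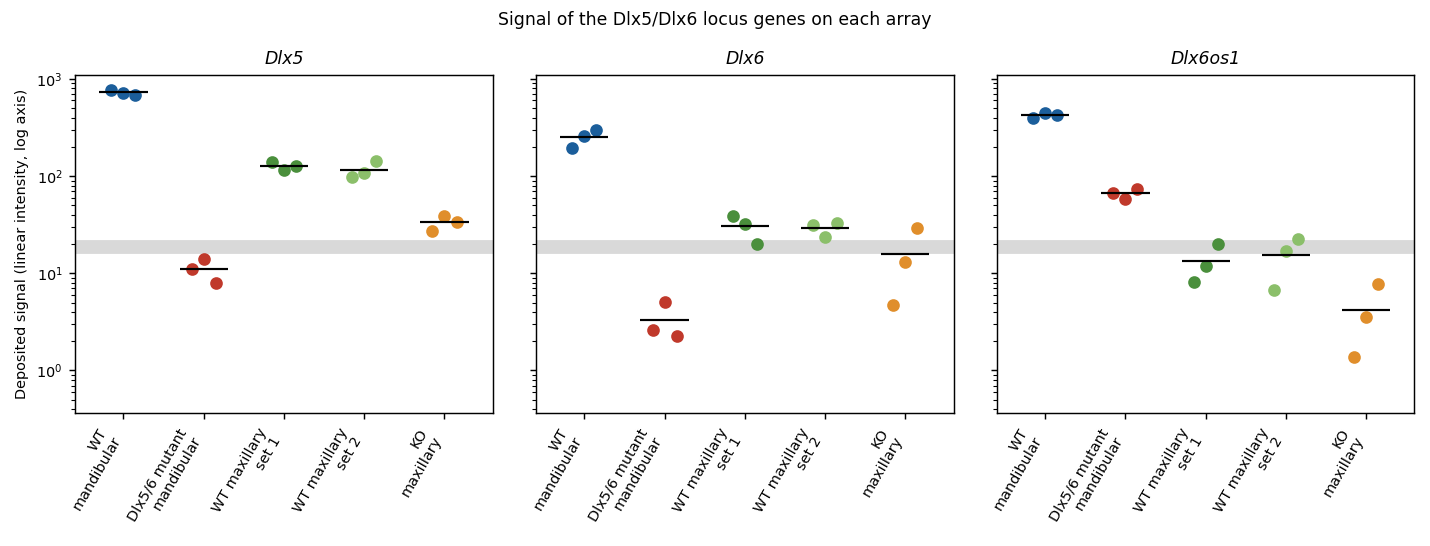
Deposited signal (log axis) of Dlx5, Dlx6 and Dlx6os1 in the 5 groups, with 1 point per array, a bar at the mean of 3 arrays, and a grey band at the arrays' 40th percentile (16.2 to 21.7). The Dlx5/6 mutant mandibular arrays are the lowest for Dlx5 and hold the lowest mean for Dlx6, but for Dlx6os1 they lie at 57.6 to 74.1, above every maxillary array.

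Between the wild-type branches all 3 genes were higher in the mandibular branch, where 1.13% of tested probe sets had a higher call and 1.51% a lower one, 2.64% in all. The difference was 2.26 ± 0.12 on the log2 scale for Dlx5 (adjusted p = 9.9e-12), 2.17 ± 0.18 for Dlx6 (adjusted p = 1.8e-08) and 3.32 ± 0.15 for Dlx6os1 (adjusted p = 4.0e-13). Among all kept probe sets these were the 6th, 9th and 3rd largest rises. The signals themselves had ratios of means of 5.71 for Dlx5, 8.22 for Dlx6 and 31.7 for Dlx6os1, and the WT mandibular and set 1 arrays did not overlap for any of them. The ratio of Dlx6os1 rests on dim set 1 signals, and ran from 19.7 to 54.7 between pairs of arrays. With a pseudocount of 8 the log2 differences of Dlx5, Dlx6 and Dlx6os1 were 2.45, 2.76 and 4.38, and with one 4 times as large as 32 they were 1.74, 1.24 and 1.95. With set 2 as the maxillary control, where 5.4% of probe sets were called higher, the differences were 2.34, 2.18 and 3.26. Of the called probe sets 42.6% were higher in the mandibular branch, against 56.5% when array medians were aligned instead. Markers of sensory neurons and glia, none at 0, had 7 of 7 called lower against set 1, and 6 lower and Isl1 higher against set 2. They summed to a signal of 503 to 538 in the mandibular branch against 2495 to 2625 in set 1 and 1018 to 1056 in set 2. The 3 muscle markers, 2 of them called higher, summed to 206 to 242 against 81.5 to 83.8 in set 1. Arch mesenchyme markers, 1 of 6 called higher and 3 lower, summed to 6130 to 6724 against 7485 to 7943, and macrophage markers, 1 of 4 called lower, to 212 to 233 against 349 to 368. Epithelial markers, 0 of 5 called by limma and 2 at an unadjusted p under 0.05, summed to 1946 to 2031 against 1746 to 1870. Their part in the differences of the Dlx genes was not tested. In bulk tissue, fewer cells of a type and less RNA per cell cannot be told apart.

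In the Dlx5/6 mutant mandibular branch all 3 genes fell, where 1.25% of tested probe sets were called lower and 1.41% higher, 2.66% in all. The log2 difference of Dlx5, -4.13 ± 0.12 (adjusted p = 4.3e-16), was the largest fall of all kept probe sets. Dlx6 fell by 2.96 ± 0.18 (adjusted p = 1.6e-10), the 3rd largest, and Dlx6os1 fell by 2.16 ± 0.15 (adjusted p = 1.2e-09), the 9th largest. Dlx5 and Dlx6 are the genes named as mutated in this group, so their falls may describe the mutation itself. The sources used here gave neither the kind of mutation nor the position of the probes in relation to it, and the labels did not say whether Dlx6os1 was touched. The ratio of mean signals was 66.4 for Dlx5 and 75.2 for Dlx6, both resting on dim mutant values, and 6.36 for Dlx6os1, with 5.33 as the ratio of its dimmest WT to its brightest mutant array. With a pseudocount of 8 the falls of Dlx5, Dlx6 and Dlx6os1 were -5.26, -4.47 and -2.48, and with one 4 times as large as the main one they were -2.61, -1.51 and -1.47, so the sizes depend on that choice while the calls did not change. Macrophage markers summed to 343 to 386 in the mutant against 212 to 233 in WT arrays, with 1 of 4 called higher and none at 0, and the muscle markers to 109 to 129 against 206 to 242, with 1 of 3 called lower. Neuron and glia markers had 1 of 7 called higher, at 516 to 564 against 503 to 538. Arch mesenchyme markers, 2 of 6 called higher (Prrx2 and Twist1) and 1 lower (Msx1), summed to 7333 to 7757 against 6130 to 6724. Their part in the falls was not tested.

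Set against the wild-type maxillary branch, the mutant mandibular branch split the 3 genes. Dlx5 was lower in the mutant than in set 1 by a log2 difference of -1.87 ± 0.12 (adjusted p = 1.2e-09), and Dlx6os1 was higher by 1.16 ± 0.15 (adjusted p = 6.2e-05), the 5th largest rise of this comparison. Dlx6 was lower by -0.80 ± 0.18 (adjusted p = 0.039). Of all tested probe sets 0.202% were higher and 0.392% lower by the test, 0.594% in all, and 34.0% of the called probe sets were higher, or 45.5% with array medians aligned. The mutant and set 1 arrays did not overlap for any of the 3 genes. The ratio of mean signals was 11.6 for Dlx5 and 9.14 for Dlx6, higher in set 1 and resting on dim mutant values, with 3.91 to 17.0 between pairs of arrays for Dlx6. For Dlx6os1 it was 4.98, higher in the mutant and resting on dim set 1 values, with 2.87 to 9.13 between pairs of arrays. With a pseudocount of 8 the log2 differences of Dlx5 and Dlx6os1 were -2.81 and 1.89, and with one 4 times as large as 32 they were -0.87 and 0.48. The call of Dlx6 was lost without any of the 3 mutant arrays or without replicate 1 or 2 of set 1, with adjusted p values up to 0.209 over the 6 omissions, and with the replicate block (adjusted p = 0.054). Neither the call of Dlx5 nor that of Dlx6os1 was lost in any setting tried, and against set 2, where 5.41% of probe sets were called lower and 5.76% higher, the values were -1.79 and 1.09. All 7 markers of sensory neurons and glia were called lower in the mutant, at a summed signal of 516 to 564 against 2495 to 2625. Arch mesenchyme markers summed to 7333 to 7757 against 7485 to 7943. Of these 6, limma called 1 lower (Prrx2), and 4 had an unadjusted p under 0.05. Epithelial markers summed to 1953 to 2042 against 1746 to 1870 and muscle markers to 109 to 129 against 81.5 to 83.8, with 0 of 5 and 0 of 3 called by limma and 2 and 1 at an unadjusted p under 0.05. Their part was not tested.

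**Figure D2:**
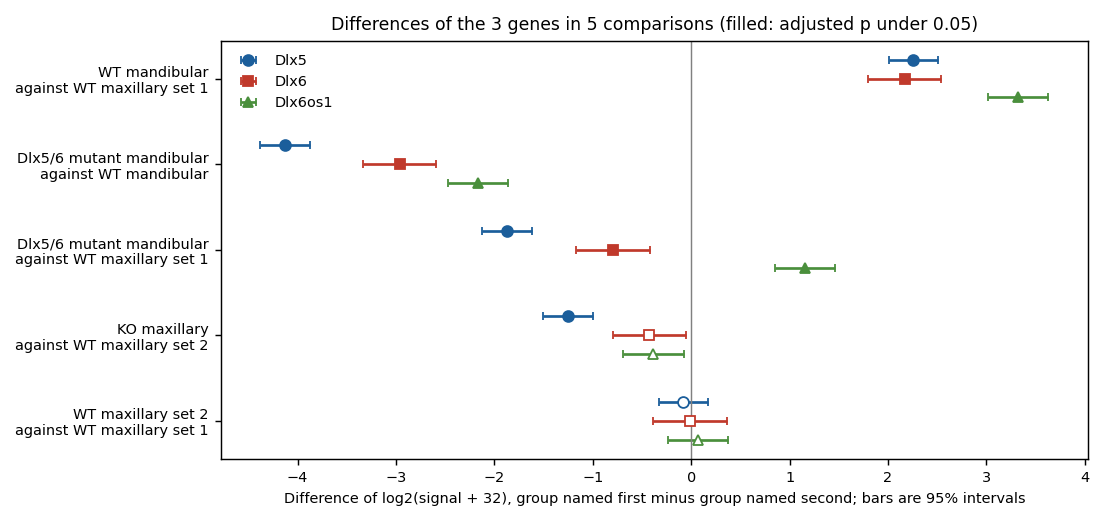
Difference of log2(signal + 32) for Dlx5, Dlx6 and Dlx6os1 in 5 comparisons, group named first minus group named second, with 95% intervals from limma and filled symbols at an adjusted p under 0.05. Mutant mandibular arrays against WT maxillary set 1 gave -1.87 for Dlx5, -0.80 for Dlx6 and 1.16 for Dlx6os1, so the antisense transcript lies on the other side of 0.

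In the KO maxillary branch Dlx5 fell and the other two genes were not called. The comparison with set 2 gave a log2 difference of -1.25 ± 0.12 for Dlx5 (adjusted p = 1.4e-06), where 0.449% of tested probe sets were called lower and 0.465% higher, 0.913% in all, and it was the 9th largest fall. The dimmest set 2 array was 2.48 times as bright as the brightest KO array, and the means differed 3.49-fold. For Dlx6 the difference was -0.43 ± 0.18 (adjusted p = 0.39, 95% interval -0.80 to -0.053) and for Dlx6os1 -0.38 ± 0.15 (adjusted p = 0.32, 95% interval -0.69 to -0.077), and for both the KO and set 2 arrays overlapped. These intervals lie below 0 but, unlike the p values, are not adjusted for the number of probe sets, so falls of either gene remain possible and uncalled. On the set 2 arrays Dlx6 lay at percentiles 44.4 to 52.3 and Dlx6os1 at 22.5 to 44.4, near or below the filter's limit. Against set 1, in the other array set, the difference was -1.33 for Dlx5, where 5.57% of probe sets were called lower. A pseudocount of 8 gave -1.69 for Dlx5 and one 4 times the main one gave -0.63, with the call kept. The gene lost in the KO group is not named, and Dlx2 read 3.21, 3.56 and 3.32 on these arrays against 442, 421 and 402 in set 2, while Dlx1 fell by 1.62 ± 0.07 (adjusted p = 6.2e-13). Of the called probe sets 50.9% were higher in the KO group, against 32.7% once array medians were aligned. Macrophage markers summed to 515 to 571 in KO against 334 to 366 in set 2 arrays, with 2 of 4 called higher, and neuron and glia markers to 837 to 855 against 1018 to 1056, with 2 of 7 called lower. Arch mesenchyme markers, 1 of 6 (Prrx1) called lower, summed to 6584 to 6942 against 7259 to 7617. Epithelial markers summed to 1971 to 2070 against 1732 to 1820, endothelial markers to 318 to 397 against 250 to 280 and muscle markers to 90.7 to 128.3 against 50.1 to 89.0, with 0 of 5, 0 of 3 and 0 of 3 called by limma and 3, 2 and 1 at an unadjusted p under 0.05. None of these markers was at 0, and their part in the fall of Dlx5 was not tested.

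**Figure D3:**
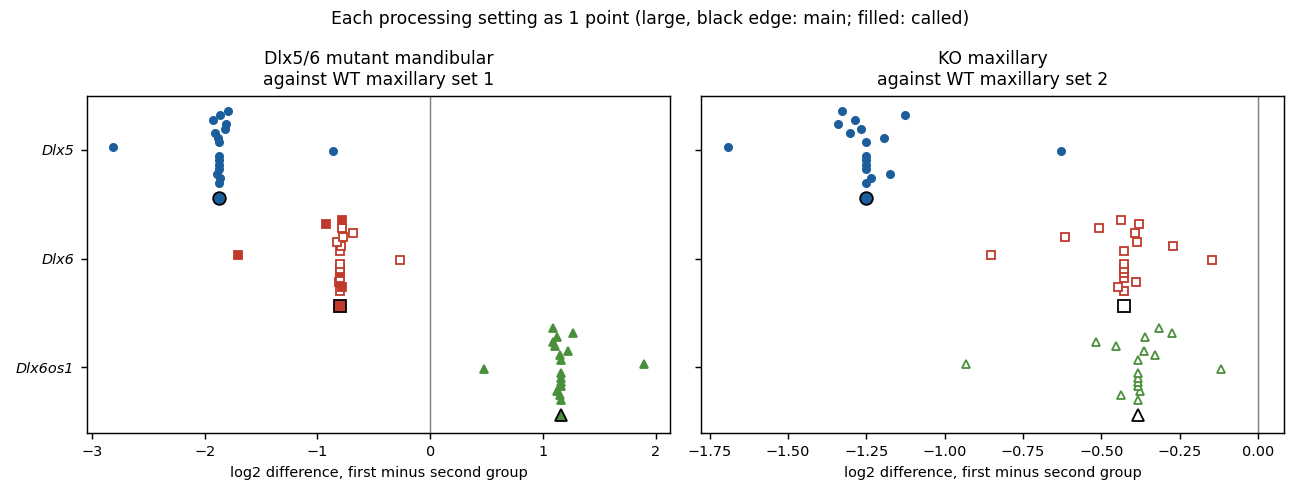
Log2 difference of the 3 genes under each processing setting, with 1 point per setting, for the mutant mandibular arrays against WT maxillary set 1 (left) and the KO maxillary arrays against set 2 (right), filled where the gene was called. Dlx5 is called in each setting of both panels, Dlx6os1 in each setting of the left panel and in none of the right, and the calls of Dlx6 on the left come and go with the setting.

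The 2 WT maxillary sets carry the same labelled tissue but lie in different array sets. None of the 3 genes was called between them, although 8.49% of tested probe sets were called, with 4.11% higher in set 2 and 4.38% lower. Set 2 minus set 1 was -0.08 ± 0.12 for Dlx5 (95% interval -0.33 to 0.17), -0.01 ± 0.18 for Dlx6 (-0.38 to 0.36) and 0.07 ± 0.15 for Dlx6os1 (-0.24 to 0.37). These intervals describe a single pair of groups and do not measure how far groups of the same tissue can differ.

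Ordered by mean log2 level, Dlx5 ran from WT mandibular to WT maxillary set 1, set 2, KO maxillary and mutant mandibular. Neighbours in that order differed at each step except between the 2 WT maxillary sets, and the last step, KO above mutant, was 0.54 ± 0.12 (adjusted p = 0.0042) in a comparison across array sets in which 6.01% of probe sets were called lower in the mutant. Dlx6 had the same order, but after the first step no neighbours were called apart, with KO above mutant by 0.36 ± 0.18 (adjusted p = 0.22). For Dlx6os1 the mutant came second, below WT mandibular by 2.16 and above set 2 by 1.09 ± 0.15 (adjusted p = 2.6e-05, across array sets). The lower maxillary neighbours of Dlx6os1, set 2 and set 1, then set 1 and KO, were not called apart (adjusted p = 0.85 and 0.20).

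Across the 15 arrays the log2 levels of Dlx5 and Dlx6 correlated at a Pearson r of 0.95, those of Dlx6 and Dlx6os1 at 0.80 and those of Dlx5 and Dlx6os1 at 0.69. These describe differences between groups, since the arrays cluster by group. Deviations of the arrays from their own group's mean correlated at 0.17 for Dlx5 with Dlx6, 0.36 for Dlx5 with Dlx6os1 and 0.061 for Dlx6 with Dlx6os1. In the WT mandibular group the array brightest in Dlx5 was the dimmest in Dlx6 and in Dlx6os1.

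The genes most like each member were the 5 with the highest Pearson r of log2 level over the 15 arrays. They were sought among 13931 other genes, each at the probe set chosen as described below. For Dlx5 they were Dlx1as (r = 0.94), the antisense transcript of Dlx1, the ephrin receptor gene Epha3 (0.91), AW551984 (0.91), Zadh2 (0.90) and Ptn (0.90), which encodes the secreted growth factor pleiotrophin. For Dlx6 they were Zadh2 (0.96), Dlx1as (0.95), the BMP pseudoreceptor gene Bambi (0.95), Ptn (0.95) and Rtl3 (0.93). Dlx6os1 was matched by Hand2 (0.98), a basic helix-loop-helix factor of the ventral arch, by Csrp2 (0.97), by the orphan receptor gene Gpr50 (0.97), by the zinc finger gene Bnc1 (0.97) and by Pdgfc (0.97), a platelet-derived growth factor gene. Dlx5 and Dlx6 shared 3 of their 5 genes, and Dlx6os1 shared 0 with either.

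Dlx1as and Hand2 show the forms. Dlx1as read 232, 384 and 329 in WT mandibular and 19.8, 26.2 and 20.3 in mutant mandibular arrays, below set 1 at 41.4, 43.2 and 46.5, and the KO arrays, at 22.2, 26.3 and 17.6, lay below set 2 at 57.6, 88.3 and 54.6. Its mutant mandibular signals lay below those of the WT maxillary arrays, as for Dlx5. Unlike Dlx5, it was not called by limma against set 1 (-0.46 ± 0.16, adjusted p = 0.30). Against set 2, across array sets, the difference was -0.84 (adjusted p = 0.00083). The mutant and KO arrays of Dlx1as overlapped. Hand2 read 1685, 1702 and 1606 in WT mandibular arrays, and its mutant signals of 199, 198 and 186 lay far above its maxillary signals, of which the highest were 17.0 in set 1, 10.9 in set 2 and 17.3 in KO arrays. All these arrays are shared by the genes compared and include both array sets, so the r values are descriptions. The changes of the matched genes can be much smaller than those of the members. Epha3, for example, had mean signals of 468 in WT mandibular and 302 in mutant arrays.

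**Figure D4:**
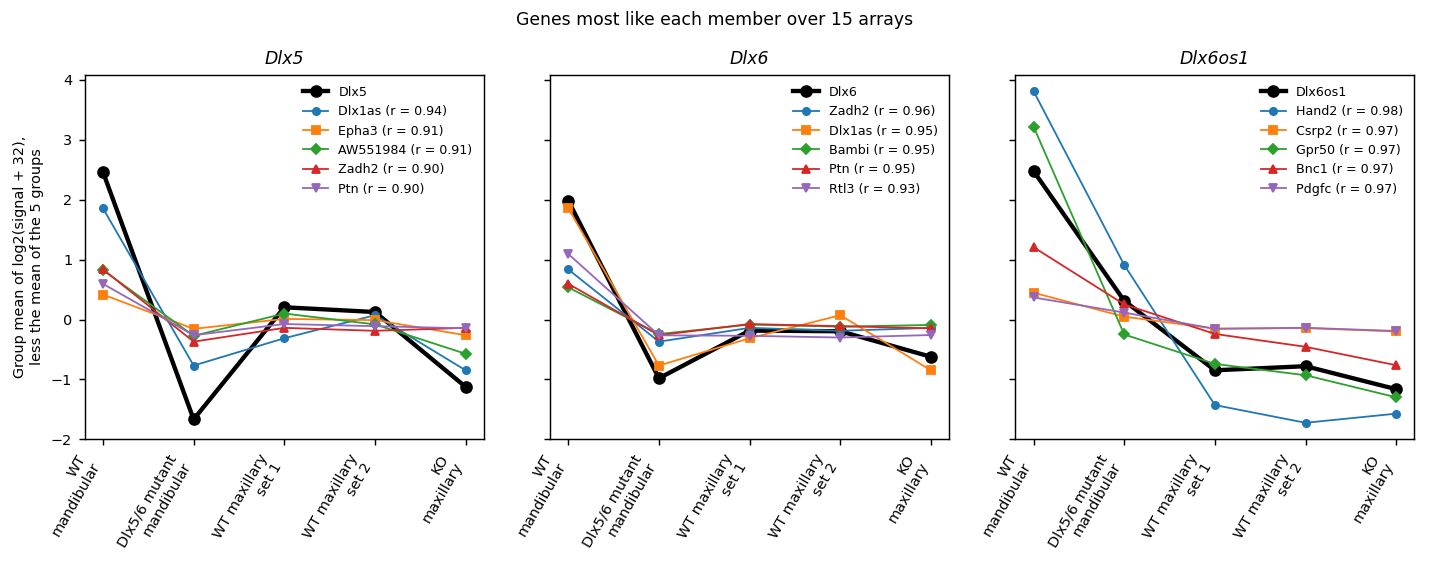
Group means of log2(signal + 32), less the mean of the 5 groups, for each member (black) and the 5 genes with the highest Pearson r to it over 15 arrays. Beside Dlx5 and Dlx6 the mutant mandibular means lie below both WT maxillary sets, except for Rtl3, while beside Dlx6os1, led by Hand2 (r = 0.98), they lie above all 3 maxillary groups.

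The counts of the lists that follow are to be read against the shares of all tested probe sets. Those were 1.13% higher and 1.51% lower between the wild-type branches, 1.41% and 1.25% in the mutant, 0.202% and 0.392% in the mutant against set 1, and 0.465% and 0.449% in the KO group. Among the other Dlx genes, 5 of 5 were measured. Between the wild-type branches Dlx3 (1.41 ± 0.15, adjusted p = 9.2e-07) and Dlx1as (2.17) were higher and Dlx1 (-0.37) lower in the mandibular branch, with a list median of 0.55 against 0.0041 over all genes. In the Dlx5/6 mutant Dlx3 (-1.37), Dlx4 (-1.03) and Dlx1as (-2.62) fell, Dlx1 rose by 0.72 ± 0.07 (adjusted p = 4.3e-07) and Dlx2 was not called (0.28, adjusted p = 0.15), with a median of -1.03 against -0.0078. Against set 1 the mutant had 1 of 5 called higher, Dlx1 (0.36, adjusted p = 0.013), where 0.202% of all were, a call lost on leaving out replicate 2 or 3 of the mutant or 1 or 3 of set 1. In the KO group Dlx1, Dlx2 (-3.70) and Dlx1as (-0.92) fell, whereas Dlx3 (-0.12) and Dlx4 (0.0065) were not called, with a median of -0.92 against -0.0016. Dlx5 thus fell in the maxillary KO beside Dlx1 and Dlx2, while the differences of Dlx3 and Dlx4 did not pass the test.

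The endothelin pathway acts upstream of Dlx5 and Dlx6, and 9 of 10 listed genes were measured. In limma 0 of 9 were called in the Dlx5/6 mutant and 0 of 9 in the KO group, where 2.66% and 0.913% of all probe sets were called, with 1 in each at an unadjusted p under 0.05. At such shares a count of 0 among 9 says little about the list. Limma called 1 between the wild-type branches, Ednrb (-0.93 ± 0.17, adjusted p = 0.0017), lower in the mandibular branch. Ednrb is 1 of the endothelin receptor genes listed, and for the other, Ednra, no probe set carried that symbol alone. The list medians were -0.07, 0.12 and 0.12 for the wild-type, mutant and KO comparisons. The ligand gene Edn1 was dim, with mean signals of 10.9 in WT mandibular and 20.8 in mutant arrays (log2 difference 0.29, adjusted p = 0.67), and the nuclear effector gene Mef2c had means of 117 in WT mandibular and 126 in mutant arrays (0.12, adjusted p = 0.81). Against set 1, limma called 0 of 9 in the mutant, with 2 at an unadjusted p under 0.05.

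Ventral arch genes reported downstream of the pair, 9 of 10 measured, counted 7 higher and 0 lower in the WT mandibular branch where 1.13% and 1.51% of all were called, and 0 higher and 8 lower in the mutant, where 1.41% and 1.25% were, with medians of 1.47 and -1.37. Against WT maxillary set 1 the mutant had 1 of 9 called higher, Hand2 (2.34 ± 0.13, adjusted p = 7.0e-11), so Hand2 and Dlx6os1 were both higher there. In the KO group limma called 0 of 9, with 1 at an unadjusted p under 0.05. Proximal and maxillary genes, 8 of 8 measured, counted 0 higher and 7 lower in the WT mandibular branch, 6 higher and 1 lower in the mutant, 0 and 2 in the mutant against set 1, and 0 and 3 in the KO group, where Dlx5 also fell. Of all probe sets 2.64%, 2.66%, 0.594% and 0.913% were called in these comparisons. Their medians were -1.33, 0.95, -0.17 and -0.28. Some of these genes became known through studies of Dlx mutants, possibly with these same arrays, so the counts are no independent evidence of direction.

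Proteins that bind DLX factors or rival homeodomain proteins formed a list of 5, all measured. Ndn (0.45 ± 0.06, adjusted p = 2.4e-05), Magel2 (1.02) and Maged1 (0.31), 3 related MAGE family genes, were higher in the WT mandibular branch, with a median of 0.31, where 1.13% of all probe sets were called higher. In the mutant the same 3 genes and Msx1 fell, Ndn by 0.31 ± 0.06 (adjusted p = 0.0040), Magel2 by 0.64, Maged1 by 0.29 and Msx1 by 0.57, with a median of -0.31, where 1.25% of all were called lower. The falls of Maged1 and Msx1 lost their call without mutant replicate 1 or 2 or WT mandibular replicate 1, that of Msx1 also without WT mandibular replicate 3, and that of Magel2 without mutant replicate 3. The rise of Maged1 lost its call without WT mandibular replicate 1 or set 1 replicate 1 or 3, with a highest adjusted p of 0.095. In the KO group 2 of 5 fell, Ndn (-0.29) and Msx2 (-0.36), where 0.449% of all were called lower, and each lost its call when single arrays were left out, Msx2 with any of the 6 and Ndn with KO replicate 1 or 3 or set 2 replicate 2 or 3. Against set 1 limma called 0 of 5 in the mutant, where 0.594% of all were called, with 3 at an unadjusted p under 0.05.

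Genes that neighbour the pair on the chromosome formed another list. Of 6 measured, 1 was higher in the WT mandibular branch, the tachykinin gene Tac1 (0.82 ± 0.19, adjusted p = 0.016), 2 fell in the mutant, Tac1 (-0.89) and Sem1 (-0.32 ± 0.06, adjusted p = 0.0045), and limma called 0 in the KO group, with 2 at an unadjusted p under 0.05. Of all probe sets 1.13% were called higher in the first, 1.25% lower in the second and 0.913% either way in the third. The medians were 0.07, -0.10 and -0.01. The fall of Tac1 lost its call without mutant replicate 3 or WT mandibular replicate 2, its rise without WT mandibular replicate 2 or set 1 replicate 1 or 2, and that of Sem1 under the deposited scaling alone (adjusted p = 0.072).

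Forebrain GABA neurons are the other tissue in which this locus is best known, and their genes were dim here. Of 7 listed, 6 were on the array by that name and 3 were kept. The GABA synthesis genes Gad1 and Gad2 were not kept and had group means of at most 10.3 and 15.6. Sst, which sensory neurons express too, was the called member, lower in the WT mandibular branch (-2.58 ± 0.18, adjusted p = 1.3e-09) and higher in the mutant than in WT mandibular arrays (0.68, adjusted p = 0.044), a call kept without mutant replicate 3 and lost without any other of the 6 arrays. The 3 forebrain markers measured summed to 28.9 to 116 over the 15 arrays, the 3 markers of second arch and hindbrain to 12.7 to 87.3, and the 6 of arch mesenchyme to 6130 to 7943.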

How the data were processed

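Signals were deposited as linear intensity values, 1 per probe set and array, for 15 arrays in 5 groups of 3. How probes were summarised and background was corrected is not given in the sources used here. From the values, the authors had scaled the arrays to a mean intensity of 150.0 with the lowest and highest 2% trimmed. The columns were converted to log2(value + 32) and quantile normalized. Of 45101 probe sets, 64 were controls, and the 31643 that exceeded the 40th percentile of signals on 3 or more arrays were kept. The probe table gave 34958 probe sets 1 symbol, 932 several and 9211 none, and the 3 members matched RefSeq by gene ID. All comparisons came from a limma fit of the 15 arrays (limma 3.58.1, R 4.3.3) with 10 residual degrees of freedom, an intensity trend and two-sided p values. For a gene with several probe sets, those not marked _x_at or _s_at were preferred, and the brightest of these was used. The number of arrays limits the precision (median SE 0.148).

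Named were the members' probe sets, the 5 genes most like each by Pearson r, the other Dlx genes and up to 3 called genes per list, with Dlx6os2, Edn1, Mef2c, Gad1, Gad2, Isl1, Msx1, Msx2, Prrx1, Prrx2 and Twist1 named after their values were seen. Ednra was named as the endothelin gene without a probe set of its symbol alone. A listed gene counted as measured where a probe set carried its symbol alone. The members and lists were chosen with earlier results of these data known. Deviations of arrays with the same replicate number correlated at -0.096 to 0.085 (30 comparisons), and the numbers were therefore not treated as a pairing. The alternatives were other scalings, pseudocounts, filters, variance models and thresholds, a fit of the compared groups alone, a replicate block, each array left out and the other maxillary control. Comparisons of further pairs of groups, for the order of levels, were added after seeing the data. The limma fit was also run on simulated normal values with planted changes and the spread of this fit. Those values held no difference between array sets and were not normalized, so neither was tested.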

Additional observations from a re-analysis of the deposited data

How the results depend on the processing

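For Dlx5, Dlx6 and Dlx6os1 in the wild-type and mutant mandibular comparisons, for Dlx5 and Dlx6os1 in the mutant against WT maxillary set 1 and for Dlx5 in the KO comparison, direction and call held in every setting tried, and Dlx6 and Dlx6os1 in the KO comparison were called in none. Dlx6 in the mutant against set 1 (-0.80) kept its direction but not its call at an adjusted p limit of 0.01 (-0.80), without the intensity trend (-0.80, adjusted p = 0.088), without a filter (-0.80, adjusted p = 0.10), in a fit of the compared groups alone (-0.80, adjusted p = 0.073), with the replicate block (-0.80, adjusted p = 0.054) and with a pseudocount 4 times as large (-0.26, adjusted p = 0.23). Without single arrays it ran from -0.92 to -0.69, called in 1 of 6 fits. The replicate block changed no other call of the 3 genes.

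Between the 2 WT maxillary sets no value was called, and signs turned without single arrays, with ranges of -0.20 to 0.012 for Dlx5, -0.14 to 0.099 for Dlx6 and -0.040 to 0.20 for Dlx6os1. Counts over all probe sets moved by over 1.5 times in some settings, for example from 841 to 394 at the limit of 0.01 and to 452 without the intensity trend in the mutant comparison, from 188 to 107 and 125 in the mutant against set 1, from 289 to 152 and 172 in the KO comparison, from 2686 to 1240 and 1634 between the sets, and from 835 to 530 at 0.01 in the wild-type comparison. Without single arrays the lowest counts were 499 (mutant replicate 2; 519 without replicate 3), 121 (mutant replicate 2), 177 (set 2 replicate 1; 180 without set 2 replicate 3 and 188 without KO replicate 2) and 1773 (set 2 replicate 2) in the first 4 of these. Against the maxillary control of the other array set the counts were 3318, 3536 and 3310 for the wild-type, mutant and KO comparisons. Dim signals limit Dlx6 and Dlx6os1 in the maxillary branch, and the causes of these changes were not tested.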
